A study of Mus musculus with 10 samples.

Results

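The acute phase plasma proteins described here are 10 genes that hepatocytes express and whose products circulate in blood: the fibrinogen chains Fga, Fgb and Fgg, the orosomucoids Orm1 and Orm2, haptoglobin (Hp), ceruloplasmin (Cp), serum amyloid P component (Apcs), Itih4 and Saa4. They were taken by symbol from the array annotation, among probes assigned to a single gene. All 10 had such a probe, 1 each, and all 10 were tested, among 18012 genes in the whole table. The study set 5 mice treated with an antisense oligonucleotide (ASO) against miR-122 against 5 saline-treated mice, with 1 array per liver. The ASO mice were male C57Bl/6 and received 50 mg/kg of an oligonucleotide with 2'-O-methoxyethyl sugars and a phosphorothioate backbone. Strain and sex are not stated for the saline mice. Both groups were injected intraperitoneally 2 times a week for 4 weeks, and the final dose preceded collection of the liver by 2 days. Saline was the only control, so a response to the oligonucleotide chemistry and a response to the loss of miR-122 cannot be told apart. RNA came from whole liver, where fewer cells of a type and less RNA per cell cannot be told apart either.

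The acute phase response is the change in plasma proteins that follows infection or injury. Interleukin 6, acting through its receptor, gp130 and the transcription factor STAT3, and interleukin 1, acting through NF-kB and C/EBP factors, raise the transcription of a set of hepatocyte genes, and other liver genes such as albumin are lowered. In rodents the strength of the response differs between members, and Saa4 is the constitutive form of serum amyloid A. miR-122 is the most abundant microRNA of hepatocytes.

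The values are intensities of a 1-colour CodeLink array, used here as log2. Array medians lay between 1.03 and 1.05 on the linear scale, and precision is set by how many arrays there are. The top intensities crowded together on saline replicate 1, whose maximum was 542 while the other 9 arrays reached 1198 to 2333, and whose 100 brightest values spanned 0.37 on the log2 scale, against 1.34 to 2.45 elsewhere. The Hp, Fga, Fgb, Orm1 and Fgg probes read 73.4% to 93.4% of that array's brightest value, so these 5 genes are also given without it. Its 75th percentile was also the highest, at 5.83 on the linear scale against 4.48 to 5.40 on the other arrays. Whether the bright values of that array were cut off at an upper limit was not tested. The 8 measured hepatocyte markers averaged 5.99 to 10.40 on the log2 scale in ASO livers and 6.52 to 9.90 in saline livers, with 4 positive and 4 negative log2 fold changes (median 0.050) and 0 past the adjusted threshold in limma. Among them Alb, also bright on saline replicate 1, had a log2 fold change of 0.57, and Asgr2, a chain of the asialoglycoprotein receptor, -0.54, with every ASO liver below every saline liver (adjusted p = 0.273 in limma).

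None of the 10 genes passed the test after the ASO (limma, Benjamini-Hochberg threshold of 0.05 over 36088 probes, of which 0.0637% passed). The smallest adjusted p was 0.304, for Cp. The log2 fold change, ASO minus saline, was negative for 8 genes and positive for 2, Fgb and Saa4, and 50.5% of all tested probes were negative. Its median over the 10 genes was -0.37, beside -0.0029 over all tested probes and -0.11 over the brightest 10% of probes, of which 62.3% were negative. At an unadjusted p under 0.05 in limma, 3 genes were lower (Cp, Fga and Orm1) and 0 higher, against 6.66% of all probes lower, 4.58% higher and 11.2% in either direction. All of the 10 genes but Orm2 and Cp lie among the brightest 10% of probes, where 11.5% were lower at that level. In 0 of the 10 genes were the groups free of overlap, beside 1.43% of probes with every ASO value lower and 0.939% with every ASO value higher.

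**Figure D1:**
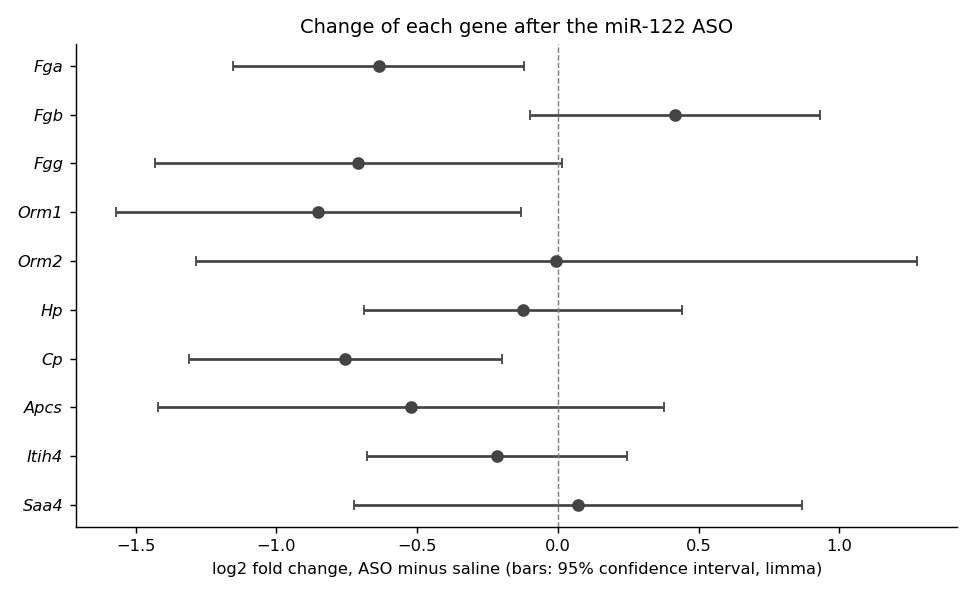
The plot of changes gives the log2 fold change of each gene (ASO minus saline, points) with its 95% confidence interval from limma (bars), n = 5 livers per group. The intervals of Fga, Orm1 and Cp lie below 0, that of Fgb (-0.10 to 0.93) mostly above it, and that of Orm2 (-1.29 to 1.28) is the widest.

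Fibrinogen, the precursor of the fibrin clot, is a dimer of 3 chains, and the genes of the alpha, beta and gamma chains lie next to each other on mouse chromosome 3 in the order Fgg, Fga, Fgb, with Fgb on the opposite strand. Because the chains are assembled together and their values here did not run in parallel, the 250 bases before each start site are shown (RefSeq, GRCm38.p6, 5' to 3' on the gene's strand). Capitals mark CTGGGA, the core of the interleukin 6 response element, TTCNNNGAA, the STAT palindrome, and TTGCNNAA, a C/EBP site, searched on both strands. The windows are chr3:83025903-83026152 (plus strand) for Fga, chr3:83049864-83050113 (minus strand) for Fgb and chr3:83007474-83007723 (plus strand) for Fgg.
Fga: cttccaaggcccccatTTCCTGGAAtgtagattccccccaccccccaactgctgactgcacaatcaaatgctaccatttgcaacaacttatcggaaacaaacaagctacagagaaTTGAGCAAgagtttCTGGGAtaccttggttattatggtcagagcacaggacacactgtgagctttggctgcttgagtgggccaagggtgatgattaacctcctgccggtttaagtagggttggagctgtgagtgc
Fgb: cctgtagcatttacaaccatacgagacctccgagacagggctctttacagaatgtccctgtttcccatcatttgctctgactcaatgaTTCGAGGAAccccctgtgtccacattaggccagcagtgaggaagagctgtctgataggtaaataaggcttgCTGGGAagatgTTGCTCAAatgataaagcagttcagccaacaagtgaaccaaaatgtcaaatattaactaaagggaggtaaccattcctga
Fgg: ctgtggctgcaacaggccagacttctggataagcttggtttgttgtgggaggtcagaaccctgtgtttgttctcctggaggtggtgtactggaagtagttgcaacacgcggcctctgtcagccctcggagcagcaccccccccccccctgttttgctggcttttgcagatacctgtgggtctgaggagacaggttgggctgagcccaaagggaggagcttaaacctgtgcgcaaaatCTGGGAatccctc
All 3 windows held 1 CTGGGA, at bases 121 to 116 before the start in Fga, 91 to 86 in Fgb and 13 to 8 in Fgg. Fga and Fgb each also held 1 STAT palindrome and 1 C/EBP site, and the Fgg window held neither. None of these matches overlapped another. Of 32851 promoter windows of this length, 27% held CTGGGA, 7.02% the STAT palindrome and 9.56% the C/EBP site. The table held windows for 8 of the 10 genes (not for Hp and Orm1), with CTGGGA in 6 genes, the STAT palindrome in 4 and the C/EBP site in 5. These counts are per gene and the percentages per window. Cp had 2 overlapping windows, with CTGGGA in 1 and the C/EBP site in the other. A match is a description of the letters and not a measured site.

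Fga, the alpha chain, read 8.19, 8.42, 7.47, 7.69 and 8.73 on the log2 scale in ASO replicates 1 to 5, against 8.85, 8.79, 8.80, 8.54 and 8.69 in saline replicates 1 to 5. The saline livers lay close together, 4 of 5 ASO livers lay below all of them, and ASO replicate 5 lay inside their range. The means were 8.10 ± 0.52 in ASO livers and 8.73 ± 0.13 in saline livers (SD, n = 5 each), a log2 fold change of -0.64 ± 0.24 (SE, adjusted p = 0.357 in limma). The change was -0.61 without saline replicate 1, -0.79 without ASO replicate 5 and -0.48 without ASO replicate 3.

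Fgg, the gamma chain, read 7.67, 7.12, 6.55, 7.13 and 7.56 on the log2 scale in ASO replicates 1 to 5, against 8.63, 8.41, 7.75, 7.92 and 6.87 in saline replicates 1 to 5. All 5 ASO livers lay below the saline mean, but saline replicate 5 was lower than 4 of them, so the groups overlapped widely. The log2 fold change was -0.71 ± 0.33 (SE, n = 5 each, limma adjusted p = 0.452). It was -0.97 without saline replicate 5 and -0.53 without saline replicate 1, where the Fgg value was the highest of the 10.

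Fgb, the beta chain, differed in sign from its partners. It read 9.95, 9.66, 9.81, 9.997 and 10.39 on the log2 scale in ASO replicates 1 to 5, against 8.79, 9.61, 9.90, 9.49 and 9.91 in saline replicates 1 to 5. All 5 ASO livers lay above the saline mean and 3 above every saline liver, and the lowest value of all was that of saline replicate 1, the array whose brightest values crowd together. The log2 fold change was 0.42 ± 0.24 (SE, n = 5 each, limma adjusted p = 0.538), and 0.23 without saline replicate 1 (limma adjusted p = 0.798). The 100 brightest probes, a set that holds Fgb, had a median log2 fold change of 0.080, and -0.021 without that array.

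The unequal change of the chains was examined within each liver, a comparison chosen after the values were seen. The adjustment over the 4 pairs examined does not cover that choice. The log2 difference between 2 probes holds the brightness of the probes themselves, so only its change between groups is read. Fgb minus Fga was 1.86 ± 0.47 in ASO livers and 0.81 ± 0.51 in saline livers (SD, n = 5 each), a change of 1.05, with all 5 ASO livers above all 5 saline livers (two-sided exact permutation p = 0.00794, the smallest that 252 splits allow, adjusted p = 0.0317 over the 4 pairs examined). Without saline replicate 1 the change was 0.84 (exact permutation p = 0.0159, adjusted p = 0.0635), with all 5 ASO livers still above the 4 saline livers. Without saline replicate 2, 3 or 4 the change was 1.06, 1.13 and 1.09, again with all 5 ASO livers above the rest, and the exact permutation p moved 1 step to 0.0159 (adjusted p = 0.0635 each), which did not pass. It was also 0.0635 after adjustment with cyclic loess normalization, where 4 ASO livers lay above all saline livers (change 1.02, exact permutation). Without any 1 ASO replicate and with quantile normalization the exact permutation p stayed at 0.00794 (adjusted p = 0.0317), with changes of 0.93 to 1.21. With any 1 array left out, every remaining ASO liver lay above every remaining saline liver. The exact permutation p of 0.00794 without an ASO array and 0.0159 without a saline array thus lie 1 step apart over 126 splits. They do not show that the result depends more on the saline livers. Without saline replicate 5 the change was 1.16, and the exact permutation p moved to 0.0159 as for the other saline livers. The adjusted p was 0.0317 in that setting only because Fgb minus Fgg had a smaller exact p there (0.00794). Fgb minus Fgg changed by 1.13 (exact permutation p = 0.0635, adjusted p = 0.127), and Fga minus Fgg by 0.072 (exact permutation p = 0.810, adjusted p = 0.810). Without saline replicate 5, Fgb minus Fgg changed by 1.48 and passed (adjusted exact p = 0.0317).

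**Figure D2:**
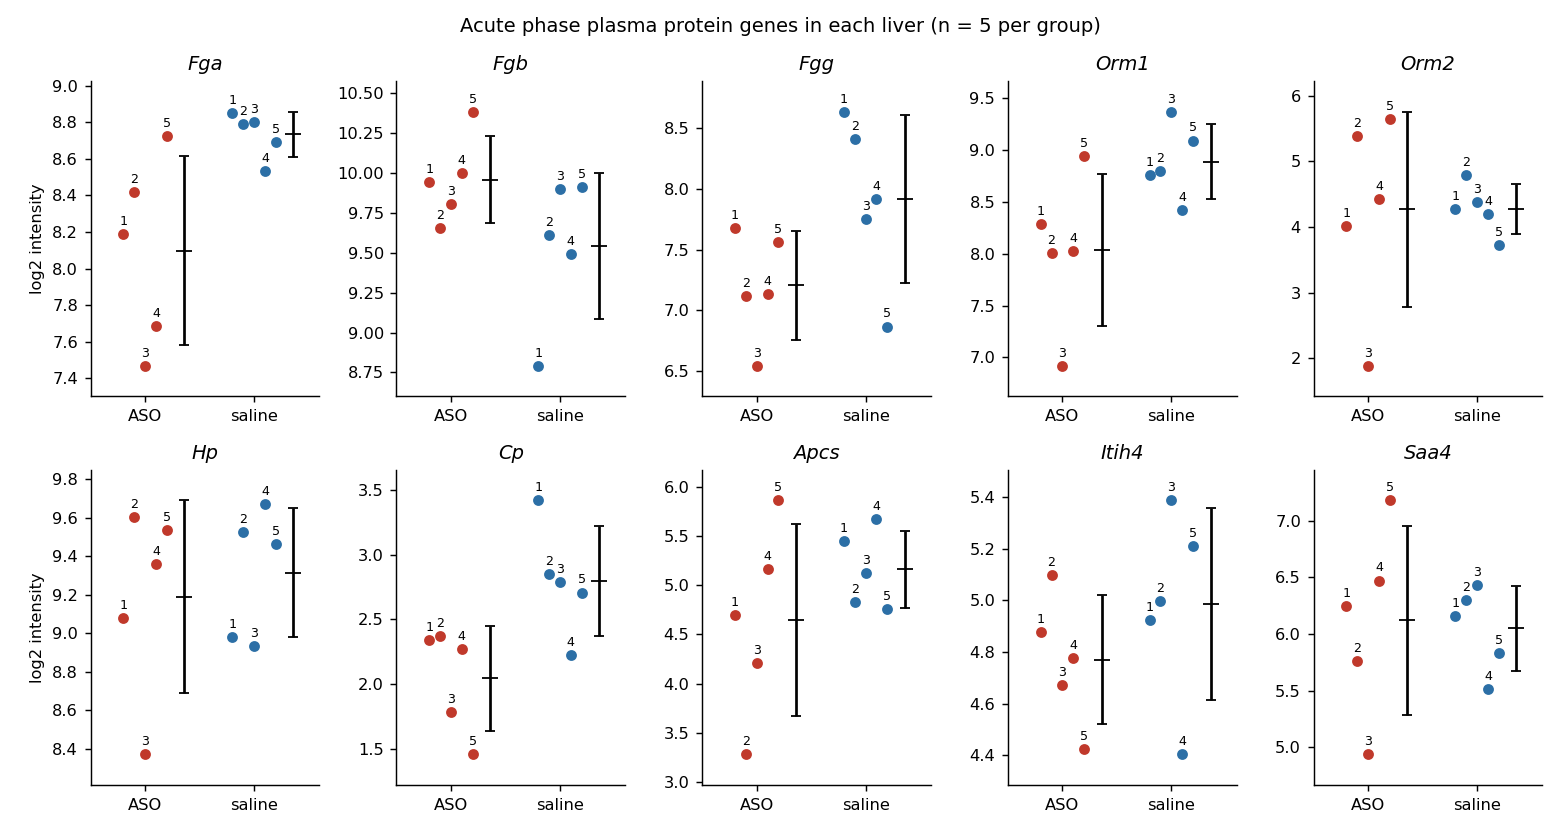
The plot of values by liver gives the log2 intensity of each gene in each liver (points, with the replicate number), ASO left and saline right, and the mean with its SD (black, n = 5). ASO replicate 3 is the lowest point for Fga, Fgg, Orm1, Orm2, Hp and Saa4, and saline replicate 1 is the lowest for Fgb.

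The orosomucoids, or alpha-1-acid glycoproteins, are lipocalins that bind drugs and other small ligands in plasma. Orm1 read 8.28, 8.01, 6.92, 8.03 and 8.95 on the log2 scale in ASO replicates 1 to 5, against 8.76, 8.80, 9.37, 8.42 and 9.09 in saline replicates 1 to 5. As for Fga, 4 of 5 ASO livers lay below every saline liver and ASO replicate 5 lay among them. The means were 8.04 ± 0.73 in ASO livers and 8.89 ± 0.36 in saline livers (SD, n = 5 each), a log2 fold change of -0.85 ± 0.33 (SE, adjusted p = 0.372 in limma). It was the largest negative change of the 10, and was -1.08 without ASO replicate 5, -0.57 without ASO replicate 3 and -0.88 without saline replicate 1.

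Orm2 lies in a cluster with Orm1 and Orm3 on chromosome 4 and is closely related to them, so cross-hybridization between their probes is possible and was not tested. It read 4.01, 5.38, 1.88, 4.42 and 5.64 on the log2 scale in ASO replicates 1 to 5, against 4.27, 4.80, 4.38, 4.19 and 3.72 in saline replicates 1 to 5. The ASO livers lay on both sides of the saline livers, with 2 above all of them and replicate 3 far below. The means were 4.27 ± 1.49 in ASO livers and 4.27 ± 0.39 in saline livers (SD, n = 5 each), a log2 fold change of -0.0050 with a 95% interval of -1.29 to 1.28 (limma adjusted p = 1). Without ASO replicate 3 it was 0.59, and without ASO replicate 5 it was -0.35. Orm2 minus Orm1 within a liver changed by 0.85 (exact permutation p = 0.127, adjusted p = 0.169 over the 4 pairs), so a difference in response between these genes did not pass.

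Haptoglobin and ceruloplasmin bind what could otherwise drive oxidation in plasma, free haemoglobin and copper. Hp read 9.08, 9.60, 8.37, 9.36 and 9.54 on the log2 scale in ASO replicates 1 to 5, against 8.98, 9.53, 8.93, 9.67 and 9.46 in saline replicates 1 to 5. Only ASO replicate 3 lay outside the saline range. The log2 fold change was -0.12 with a 95% interval of -0.69 to 0.44 (n = 5 each, limma adjusted p = 0.892), and 0.081 without ASO replicate 3. It was -0.21 without saline replicate 1.

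Cp, a copper-carrying ferroxidase, had the smallest p of the 10. It read 2.34, 2.38, 1.78, 2.27 and 1.46 on the log2 scale in ASO replicates 1 to 5, against 3.42, 2.85, 2.79, 2.23 and 2.71 in saline replicates 1 to 5. The ASO livers lay below the saline mean in all 5 cases, and saline replicate 4 lay among them. The means were 2.04 ± 0.41 in ASO livers and 2.80 ± 0.43 in saline livers (SD, n = 5 each), a log2 fold change of -0.75 ± 0.25 (SE, adjusted p = 0.304 in limma). With each array left out in turn it was between -0.90, without saline replicate 4, and -0.60, without saline replicate 1, where Cp was highest. Unlike the fibrinogen and orosomucoid probes, Cp was lowest in ASO replicate 5.

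Apcs encodes serum amyloid P component, a pentraxin that binds amyloid and chromatin and is a major acute phase protein of the mouse. It read 4.69, 3.28, 4.21, 5.16 and 5.86 on the log2 scale in ASO replicates 1 to 5, against 5.45, 4.83, 5.12, 5.67 and 4.76 in saline replicates 1 to 5. The ASO livers were more spread than the saline livers, with 3 below all of them and replicate 5 above all of them. The log2 fold change was -0.52 ± 0.41 (SE, n = 5 each, limma adjusted p = 0.661), -0.18 without ASO replicate 2 and -0.83 without ASO replicate 5.

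Itih4, an inter-alpha-trypsin inhibitor heavy chain, varied least in the ASO group. It read 4.88, 5.10, 4.67, 4.78 and 4.42 on the log2 scale in ASO replicates 1 to 5, against 4.93, 5.00, 5.39, 4.40 and 5.21 in saline replicates 1 to 5, and every ASO liver lay inside the saline range. The log2 fold change was -0.22 ± 0.21 (SE, n = 5 each, limma adjusted p = 0.730), between -0.36 without saline replicate 4 and -0.11 without saline replicate 3, and -0.074 with quantile and -0.095 with cyclic loess normalization. Saa4 read 6.25, 5.76, 4.94, 6.47 and 7.18 on the log2 scale in ASO replicates 1 to 5, against 6.16, 6.30, 6.43, 5.51 and 5.83 in saline replicates 1 to 5. Its ASO livers lay on both sides of the saline livers, with a log2 fold change of 0.071 ± 0.36 (SE, adjusted p = 0.964 in limma), 0.37 without ASO replicate 3 and -0.19 without ASO replicate 5.

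Across livers, the SD was larger in the ASO group for 6 of the 10 genes (Fga, Orm1, Orm2, Hp, Apcs and Saa4, not tested), and ASO replicates 3 and 5 lay at opposite ends for most of them. In ASO replicate 3, 8 of the 10 genes lay below every saline liver, 6 had their lowest value of all 10 livers, and the median deviation from the saline mean was -1.06 on the log2 scale. In ASO replicate 5, 4 genes had their highest value of all 10 livers (Fgb, Orm2, Apcs and Saa4) while Cp and Itih4 were 1.34 and 0.56 below the saline mean on the log2 scale, and the median deviation was 0.14. The medians were -0.25, -0.30 and -0.10 in ASO replicates 1, 2 and 4, and -0.14 to 0.084 in the saline livers. The 100 brightest probes of the array had median deviations of 0.034 to 0.30 in the ASO livers (0.073 in replicate 3), and the brightest 10% of probes -0.12 to -0.00086 (-0.097 in replicate 3). In ASO replicate 3, 9 of the 10 genes lay below the saline mean, beside 18336 of 36088 tested probes and 2055 of the 3609 brightest. In ASO replicate 5 the counts were 4, 18145 and 1807. The share of all probes outside the saline range, or at the extreme of the 10 livers, was not computed for single livers. Hepatocyte markers had a median deviation of -0.16 in ASO replicate 3 (8 probes) and Kupffer cell and macrophage markers -0.11 there (9 probes). The macrophage markers had a median deviation of -1.43 in ASO replicate 2, and between -0.12 and 0.28 in the other ASO livers. The part of these markers in the results was not tested.

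**Figure D3:**
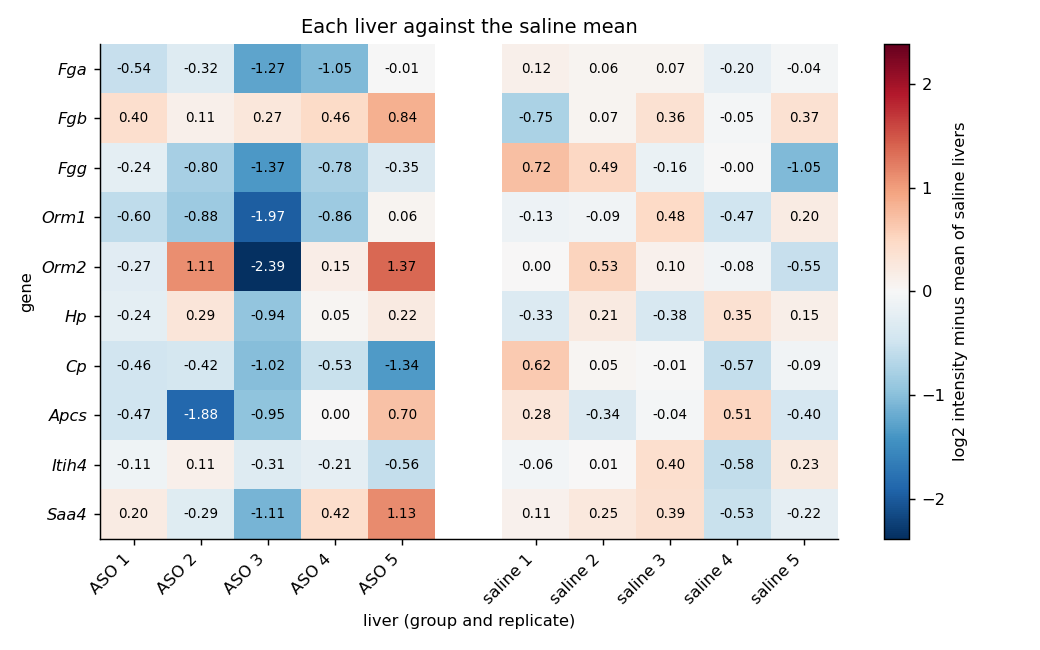
The map of livers gives the log2 intensity of each gene in each liver minus the mean of the 5 saline livers, blue for lower and red for higher. ASO replicate 3 is below the saline mean for every gene but Fgb, from -2.39 for Orm2 to -0.31 for Itih4, whereas ASO replicate 5 runs from -1.34 for Cp to 1.37 for Orm2.

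Leaving out 1 array at a time gave 0 genes past the adjusted threshold in all 10 cases, with a smallest adjusted p of 0.175 (Fga without ASO replicate 5, limma). The number of genes lower at an unadjusted p under 0.05 ran between 2 and 4 and was 3 with all arrays. It was 2 without ASO replicate 3, without ASO replicate 4 or without saline replicate 3, and 4 without ASO replicate 1 or 5. The share of all probes lower at that level was 5.26%, 6.44% and 6.84% in the 3 settings with 2 genes, 7.29% and 8.42% in those with 4, and 4.61% to 8.42% over all 10. Without both saline replicate 1 and ASO replicate 3, a setting chosen after seeing the data, it was 0 (3.86% of all probes), and the median over the 10 genes was -0.27. The median over the 10 genes stayed between -0.48 (without ASO replicate 5) and -0.29 (without ASO replicate 2). The sign turned for Hp without ASO replicate 3, for Saa4 without ASO replicate 4 or 5 or saline replicate 4, and for Orm2 without ASO replicate 1 or 3 or saline replicate 2 or 3. Fga, Fgg, Orm1, Cp, Apcs, Itih4 and Fgb kept their signs in each of the 10 cases.

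**Figure D4:**
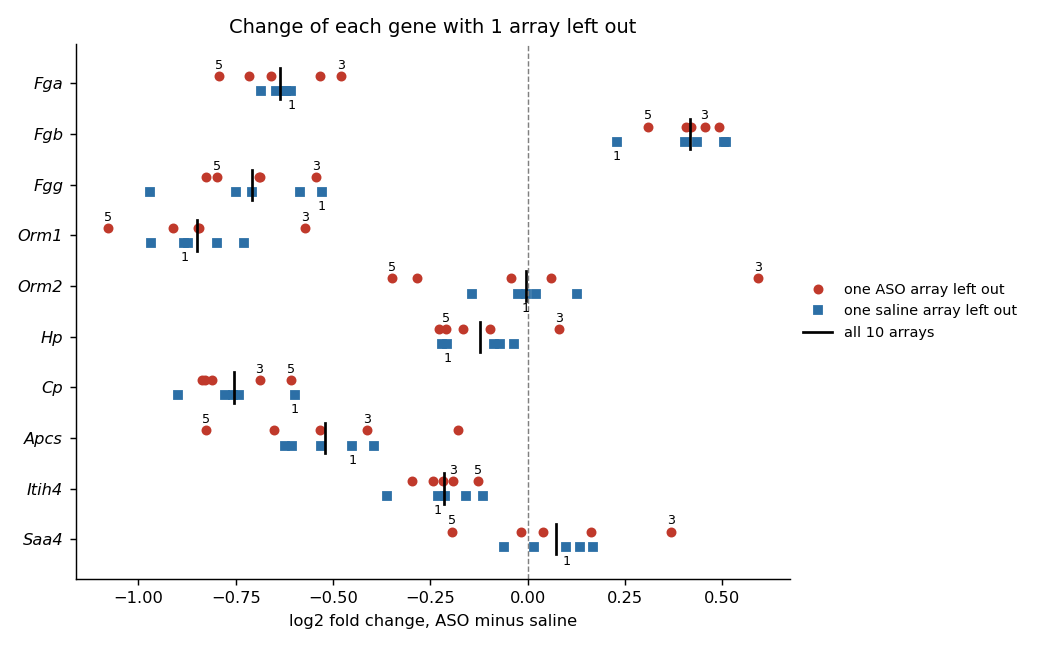
The plot of changes with 1 array left out gives the log2 fold change of each gene (ASO minus saline) with 1 ASO array (red circles) or 1 saline array (blue squares) removed, and with all 10 arrays (black line). Numbers mark ASO replicates 3 and 5 and saline replicate 1. Orm2 spans -0.35 to 0.59 and Cp -0.90 to -0.60.

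Other inducible acute phase genes were also given no call, and were split in direction. Of 20 listed genes, 14 were measured with a single-gene probe, 8 with a negative and 6 with a positive log2 fold change, with a median of -0.046. In limma 0 passed the adjusted threshold, and 2 were lower and 0 higher at an unadjusted p under 0.05. Of all tested probes 50.5% were negative, and 6.66% were lower and 4.58% higher at that level. Crp, the other short pentraxin, read 5.57 ± 0.81 on the log2 scale in ASO livers and 6.43 ± 0.54 in saline livers (SD, n = 5 each, limma adjusted p = 0.435). For Lbp, which presents bacterial lipopolysaccharide, the log2 fold change was -0.54 ± 0.23, and for the protease inhibitor Serpina3n -0.75 ± 0.47 (SE, limma adjusted p = 0.416 and 0.579). Serpina3n was -0.44 without ASO replicate 2 and -1.12 without ASO replicate 5. Crp, like Fga and Orm1, had its highest ASO value in replicate 5 (6.76) and read 4.82 in replicate 3. Over all livers Crp was highest on saline replicate 1 (7.23), and its log2 fold change was -0.86 with that array and -0.66 without it. The list's median deviation was -0.56 in ASO replicate 3 and 0.71 in ASO replicate 5, and its median log2 fold change ran from -0.29 without ASO replicate 5 to 0.0049 without ASO replicate 3.

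Negative acute phase genes, which fall in the classical response, had a median log2 fold change of 0.43 with 7 of 10 positive. Of all tested probes 49.5% were positive. None of the list passed the adjusted threshold in limma. At an unadjusted p under 0.05, 1 was higher and 0 lower, beside 4.58% and 6.66% of all probes. Serpina6, the corticosteroid-binding globulin, read 6.15 ± 0.30 on the log2 scale in ASO livers and 5.66 ± 0.37 in saline livers (SD, n = 5 each, limma adjusted p = 0.433). Alb had a log2 fold change of 0.57 ± 0.27 and Ahsg, fetuin-A, 0.51 ± 0.26 (SE, limma adjusted p = 0.459 and 0.495). Alb and Ahsg are among the brightest probes, and without saline replicate 1 they had 0.33 and 0.28. The list's median was 0.19 without that array, 0.099 with quantile and 0.44 with cyclic loess normalization.

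Of the cytokine signalling genes, 15 of 17 were measured, 8 positive and 7 negative, with a median log2 fold change of 0.035 and 0 past the adjusted threshold. At an unadjusted p under 0.05 in limma, 1 was higher and 2 lower, beside 4.58% and 6.66% of all probes. Stat3, the transcription factor below the interleukin 6 receptor, read 6.09, 4.37, 5.38, 5.66 and 5.07 on the log2 scale in ASO replicates 1 to 5, against 6.10, 6.13, 6.28, 6.00 and 5.82 in saline replicates 1 to 5. All saline livers lay close together and 4 of 5 ASO livers lay below all of them, a log2 fold change of -0.75 ± 0.28 (SE, adjusted p = 0.358 in limma). The other Stat3 probes gave -0.47 ± 0.25 and -0.23 ± 0.27 (SE). Il1rap, the accessory chain of the interleukin 1 receptor, had -0.47 ± 0.21 and Il6, which was dim and empty on 1 ASO array, 0.43 ± 0.18 (SE, limma adjusted p = 0.442 and 0.411). The other Il1rap probes, both dimmer, gave -0.95 ± 0.30 and -0.34 ± 0.21 (SE). The receptor chains Il6ra and Il6st had 0.035 ± 0.31 and -0.056 ± 0.32 (SE), and each changed sign under quantile and cyclic loess normalization. The Il6ra probe was dimmer than that of Il6 (means of -1.25 and -0.36 on the log2 scale) and at the floor in ASO replicate 3.

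Of the transcription factors that act on acute phase genes, 7 of 8 were measured, with a median log2 fold change of 0.13 and 0 at an unadjusted or adjusted p under 0.05 in limma. Foxa2 had 0.31 ± 0.23, Cebpb 0.20 ± 0.25, Nr3c1, the glucocorticoid receptor, 0.17 ± 0.19 and Cebpd -0.21 ± 0.32 (SE, n = 5 each). Foxa2 was 0.15 without ASO replicate 4, and Cebpd was -0.025 without ASO replicate 2. Nr3c1 was 0.042 without saline replicate 1, and Cebpb ran from 0.056 without saline replicate 2 to 0.37 without saline replicate 3. Of 9 partners and receptors of the plasma proteins, 7 were negative, with a median of -0.23, and 50.5% of all tested probes were negative. In limma 0 of the 9 passed the adjusted threshold and 2 were lower at an unadjusted p under 0.05, beside 6.66% of all probes. Cd163, the macrophage receptor for haptoglobin with haemoglobin, read 3.38, 2.42, 1.50, 1.35 and 2.90 on the log2 scale in ASO replicates 1 to 5, against 3.12, 2.99, 3.26, 3.02 and 3.22 in saline replicates 1 to 5 (log2 fold change -0.81 ± 0.35, SE, limma adjusted p = 0.424). Itgb2, a chain of the leukocyte receptor for fibrinogen, had -0.72 ± 0.29 and F2, prothrombin, -0.28 ± 0.22 (SE). Cd163 is itself a Kupffer cell marker, and the summed intensity of the 9 measured Kupffer and macrophage markers ran from 55.0 to 280 in ASO livers and from 128 to 307 in saline livers. The part of that cell type in the Cd163 value was not tested.

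**Figure D5:**
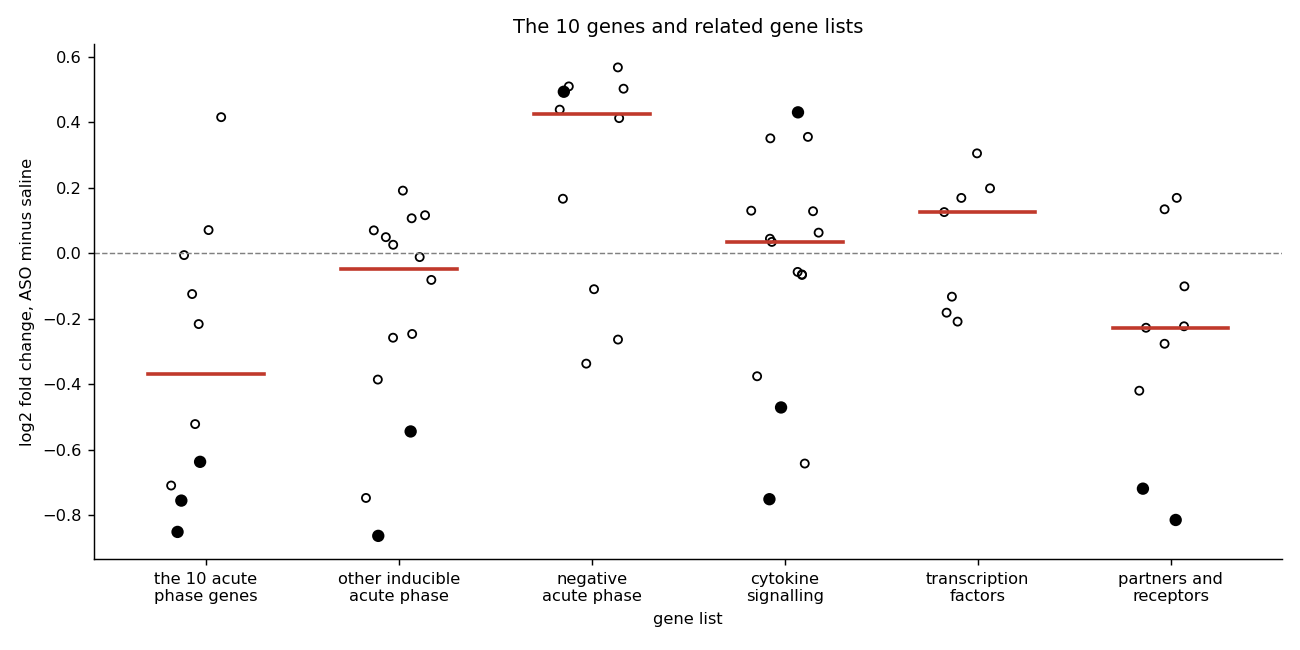
The plot of lists gives the log2 fold change (ASO minus saline) of each measured gene by list, with filled points for an unadjusted limma p under 0.05 and a red line at the list's median. The 10 genes have a median of -0.37, the negative acute phase genes 0.43 and the other inducible genes -0.046.

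Beyond the group difference, the 3 fibrinogen chains showed no covariation across livers that passed a test. With group means removed, Fga and Fgg had Pearson r = 0.48 (exact permutation p = 0.0782, adjusted p = 0.235 over 3 pairs) and Spearman rho = 0.44 (exact p = 0.150, adjusted p = 0.450) over 10 livers. This pair had r = 0.22 without ASO replicates 3 and 5, and r = 0.64 without saline replicate 5 (adjusted exact permutation p = 0.257). With quantile normalization it had r = 0.63 (adjusted exact permutation p = 0.162) and rho = 0.66 (exact p = 0.0437, adjusted p = 0.131). Fga and Fgb had r = 0.16 (exact permutation p = 0.618, adjusted p = 0.618) and rho = 0.055 (exact p = 0.906, adjusted p = 0.906), and r = -0.32 without ASO replicates 3 and 5. Fgb and Fgg had r = -0.39 (exact permutation p = 0.353, adjusted p = 0.529) and rho = -0.22 (exact p = 0.572, adjusted p = 0.858), and r = -0.32 without saline replicate 1 and ASO replicate 5. Without saline replicate 1 alone, Fgb and Fgg had r = -0.0068 and rho = 0.033. Without ASO replicate 5 alone they had r = -0.58 and rho = -0.47, so the value moved with the livers left out. Among 10181 other genes above the median level, the profiles over 10 livers nearest to the mean fibrinogen profile, by root mean square difference on the log2 scale, were those of Chmp6 (0.097), Cavin3 (0.13), Hyal2 (0.14), Rab8a (0.15) and Mnat1 (0.15), beside a median of 0.46 over all of them. Of the other 7 acute phase genes, Hp was nearest to the mean fibrinogen profile (0.36) and Orm2 farthest (0.80). That profile averages 3 chains that did not run in parallel, so nearness to it is not nearness to each chain. On saline replicate 1, with each gene's mean over 10 livers removed, the profile was 0.18 on the log2 scale, while Fgb was -0.96 and Fgg 1.07.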

How the data were processed

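The deposited values are array intensities of a 1-colour CodeLink assay on biotin-labelled liver RNA, 1 array per mouse, per the labels' protocols and the series design text. Their software, any background subtraction and scaling, and what an empty cell means, were not given in the sources used here. Groups were taken from sample titles, and replicate numbers are in accession order and pair nothing. Probes were named by the platform annotation, updated by Entrez ID (assembly GRCm38.p6), and 21615 of 36227 probes had 1 gene, 681 several and 13931 none. Probes with at least 3 values in each group were kept (36088). Values under the 10th percentile of positive values (0.192) were set to it before log2. The test was limma 3.58.1 in R 4.3.3 (lmFit, eBayes), ASO minus saline, two-sided, without covariates, adjusted by Benjamini-Hochberg over all probes. The procedure was tested on simulated data. A gene stands by its probe with the highest mean. Socs3 was empty on all arrays, and 8 other listed pathway genes were not analysed here. The members, lists and tests were chosen with earlier results of these data known. Named genes were all 10 members, up to 3 genes of each list with the smallest p, Il6ra, Il6st, Stat3, Cebpb and Cebpd, and the 5 nearest profiles. Differences between probes within a liver and correlations between chains used exact permutation over samples. Alternatives were quantile and cyclic loess normalization, no floor, a pseudocount, a restriction to the upper part of probes by level, trended and robust eBayes, array weights, averaging a gene's probes, and each array left out.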

Additional observations from a re-analysis of the deposited data

Results flagged for a closer look

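Groups of 5 livers (4 for Il6 in the ASO group) were examined for a value far from the others. They covered the 10 acute phase genes, the named genes of the lists and the 5 nearest profiles. Of 66 groups, 2 held such a value, and chance alone marks about 1 in 20 groups. Il1rap in the saline group had its lowest value in saline replicate 2, at 5.69 on the log2 scale, against 6.32 for the nearest other saline liver. Nr3c1 in the saline group had its lowest value in saline replicate 1, at -0.21, against 0.37 for the nearest other. None of the 20 groups of the 10 acute phase genes held such a value.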

How the results depend on the processing

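None of the 10 acute phase genes passed the adjusted threshold under any alternative run, and their median log2 fold change kept its sign, at -0.33 with quantile and -0.25 with cyclic loess normalization. The count of all probes past the threshold, 23, was 39 with cyclic loess, 7 with no floor, 37 with a pseudocount, 73 with only probes above the median level, 42 with trend and robust, and 0 to 16 with 1 array left out. Without saline replicate 1 and ASO replicate 3 together it was 0, and so was the count of acute phase genes lower at an unadjusted p under 0.05. The sign of Orm2 turned with quantile (0.12), cyclic loess (0.12), a pseudocount (0.0034) and that joint omission (0.59), and with 1 array left out Orm2 ran from -0.35 to 0.59 (0.060, 0.59, 0.13 and 0.021 without ASO replicates 1 and 3 and saline replicates 2 and 3). Saa4 was -0.069 with array weights, and -0.017, -0.19 and -0.062 without ASO replicates 4 and 5 and saline replicate 4 (range -0.19 to 0.37). Hp was 0.081 without ASO replicate 3 (range -0.23 to 0.081). Il6ra was -0.025 with array weights, -0.036 with cyclic loess, -0.38 with no floor, -0.091 with a pseudocount and -0.038 with quantile, and -0.13 to 0.32 with 1 array left out (-0.059, -0.13, -0.041 and -0.00030 without ASO replicates 2 and 5 and saline replicates 3 and 5). Il6st was 0.076 with cyclic loess, 0.069 with quantile, 0.25 with the joint omission and -0.28 to 0.13 with 1 array left out (0.13, 0.057 and 0.059 without ASO replicate 3 and saline replicates 1 and 2). The Fga with Fgb correlation was -0.29 with quantile normalization, -0.20 without ASO replicate 5 (range -0.20 to 0.42) and -0.32 without the 2 farthest arrays. Fga minus Fgg changed by -0.076 with quantile normalization and by -0.029, -0.078 and -0.037 without ASO replicate 2 and saline replicates 1 and 2. The cause of these changes was not tested. The ASO and saline livers came from different mice and the labels pair none of them, so no paired analysis was run. The 5 livers per group and crowded bright values on saline replicate 1 limit the precision.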
